A study of Mus musculus with 32 samples.

Results

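Expression from the active and the inactive X chromosome was compared in mouse XEN cells carrying a Ctcf degron, after 48 h in dTAG or in DMSO, the solvent control. A degron is a protein tag, and dTAG is a small molecule that sends a protein with the matching tag to degradation. The compared genes were those of the Ctcf table whose summed FPKM on the 2 X chromosomes averaged 1 or more over both treatments. That left 277 of 1006 listed genes. Of the rest, 582 were listed at 0 in every column and 147 were above 0 but too low. FPKM counts fragments per length of transcript and per sequencing total. At the edge of the rule, Tab3 and Dock11 stood just inside, with means of 1.02 and 1.02 FPKM, and Mospd2 and Wdr44 just outside, with 0.976 and 0.965 FPKM.

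XEN cells are stem cell lines of the extraembryonic endoderm, and these came from a 129S1/SvImj X JF1/Ms cross, whose sequence differences let the authors split expression between the active X (Xa) and the inactive X (Xi). The Ctcf samples were 4 of the 32 in the series, 2 for each treatment, and all 4 had the genotype Ctcf degron. The labels name no clone for them. Other groups of the same cells serve as reference below, namely WT, the lines XRRb_XaKO and XRRc_XaKO, and a Rad21 degron with DMSO or dTAG. The labels do not explain the names of those lines beyond KO, for knockout. Both lines are thus not unedited controls, though "other controls" below includes them. The deposited table held 1 merged value per treatment and allele, so no SD, no n and no p-value can be given, and no difference below has a replicate check. Read totals were not in the table and the depth is unknown. "Rose" and "fell" below mean a change of 1 or more in log2(FPKM + 0.5), dTAG minus DMSO and all changes are given on this scale, on which low genes appear to change less than they do. In such bulk samples, fewer cells expressing a gene and less RNA per cell cannot be told apart. The table holds X-linked genes, so neither Ctcf itself nor the autosomal genes that define XEN cells were analysed here. Of X-linked markers of other lineages, 6 of 8 trophoblast genes, 4 of 6 pluripotency genes, 8 of 15 blood genes and 5 of 12 neural genes were at 0 in every column. The summed FPKM of those lists went from 1.05 to 1.46, from 20.6 to 19.7, from 2.28 to 3.79 and from 1.86 to 2.02 with dTAG. In the pluripotency list these were values of Tex13 and Klf8, and Esx1, Rhox6, Rhox9, Cdx4 and Nr0b1 were among the genes at 0. The part of such cells in the changes below was not tested.

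CTCF is a zinc-finger protein that binds a long DNA motif and stops cohesin, the ring complex that extrudes chromatin loops. The convergent CTCF sites that halt cohesin mark loop anchors and domain boundaries, and some of them insulate promoters from enhancers. On the X, CTCF binds the inactivation centre, where Xist is made, and tandem repeats such as Dxz4, which sits at the hinge between the large domains of the inactive X. Xist RNA coats the inactive X and silences it in cis, and a minority of genes, called escape genes, stays expressed from it.

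On Xa, 15 of 277 genes rose with dTAG (5.42% of those tested) and 2 fell (0.722%). The median change was 0.23, with quartiles of 0.03 and 0.52. Xa values were higher with dTAG for 219 genes and lower for 58, and the median Xa FPKM was 4.94 with DMSO and 5.96 with dTAG. Between 0.5 and 1 there were 58 genes, and between -1 and -0.5 there were 2. The Xa changes had an interquartile width of 0.48. As a yardstick, XRRb_XaKO and XRRc_XaKO, a pair of knockout lines deposited together in another table, had a width of 0.24. In that pair 6 of 268 genes differed by 1 or more. After centring on the median change, or scaling both columns to the same median, 10 genes rose.

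**Figure D1:**
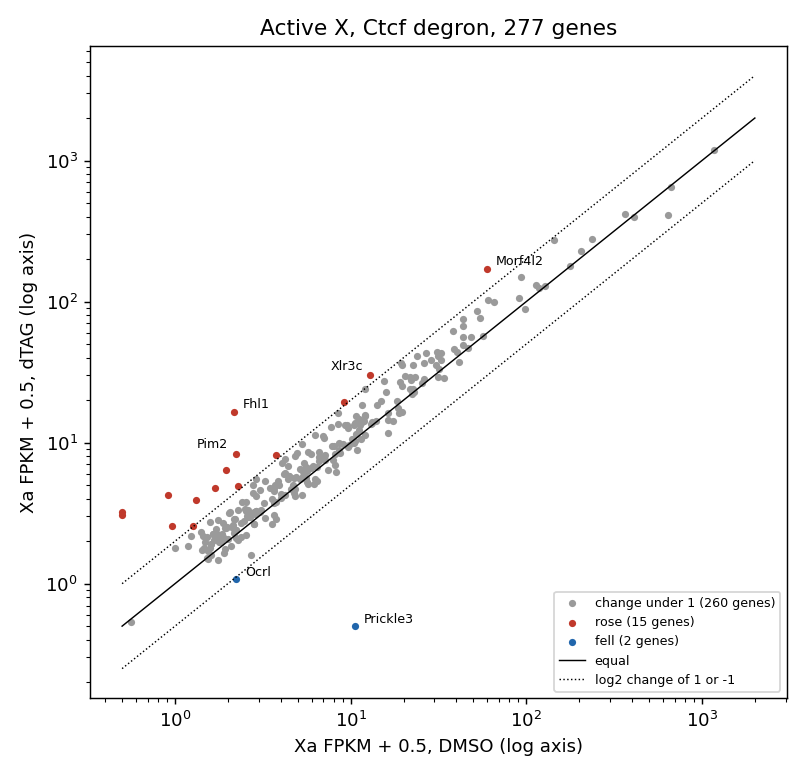
Xa FPKM + 0.5 with DMSO (horizontal) and dTAG (vertical), log axes, 1 point per gene and 1 merged column per treatment, with no error bars. Red points are the 15 genes that rose, blue points Prickle3 and Ocrl, which fell, and grey points the other 260, most of which lie a little above the line of equality (median change 0.23).

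Among genes above 0 in both columns the largest rise was that of Fhl1, a LIM-domain protein of muscle and the actin cytoskeleton, from 1.65 to 16.1 FPKM (log2 change 2.95). Fhl1 was listed at 0 on Xi in both columns. In the other degron table, for Rad21, it stood at 13.7 FPKM with DMSO and 20.3 FPKM with dTAG. Htatsf1, a neighbour of Fhl1 in the order of tested genes, went from 12.57 to 13.01 FPKM (0.05).

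Mageh1, a member of the MAGE family, and Fam3a were listed at 0 on both alleles with DMSO and at 2.70 and 2.56 FPKM on Xa with dTAG. No fold change is given for them, since a listed 0 can be a failed estimate. In the Rad21 DMSO column Mageh1 had 4.31 FPKM and Fam3a 1.61 FPKM. Without the 3 genes listed at 0 in a whole treatment, 13 rose and 1 fell. Next came 4933402E13Rik, from 0.411 to 3.78 FPKM (2.23), and Pim2, a serine/threonine kinase that promotes cell survival, from 1.73 to 7.87 FPKM (1.91). Nudt11, a hydrolase of diphosphoinositol polyphosphates, went from 1.46 to 5.91 FPKM (1.71), while the adjacent Nudt10 changed by 0.34.

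Morf4l2, a subunit of histone acetyltransferase complexes, was the risen gene with the highest level, at 59.2 FPKM with DMSO and 170 FPKM with dTAG (1.51). It has near-identical copies elsewhere in the genome and overlaps BC065397 on the opposite strand, so its value is uncertain in libraries that keep no strand. Slc38a5, a neutral amino acid transporter, rose from 1.19 to 4.28 FPKM (1.504). The remaining rises were of 1.00 to 1.22. Xlr3c, of the X-linked lymphocyte-regulated family, went from 12.4 to 29.5 FPKM, and it overlaps Xlr5a. The PWWP-domain gene Mum1l1 went from 1.78 to 4.42 FPKM, and Cetn2, a centrin of centrioles and of nucleotide excision repair, from 8.63 to 18.9 FPKM. Nxt2, a cofactor of mRNA export, went from 0.772 to 2.05 FPKM, and Gm5643, next to it in gene order, stood just outside the rule at 0.98 (11.6 to 23.4 FPKM). Gm5643 has a near-identical copy elsewhere in the genome, and its level is uncertain. Xlr3c, Mum1l1, Cetn2 and Nxt2 were among 5 genes below a change of 1 after centring. Also just outside were Klhl13 and Pls3 (both 0.94), Lamp2 (0.92) and S100g (0.91).

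On the other side, Prickle3, of the Prickle family of planar polarity proteins, was at 10.05 FPKM on Xa with DMSO and listed at 0 with dTAG. It was also listed at 0 in the WT, XRRb_XaKO and XRRc_XaKO columns and in Rad21 dTAG, and at 11.3 FPKM in Rad21 DMSO. It overlaps Plp2 on the opposite strand, whose Xa value went from 117 to 125 FPKM. Ocrl, an inositol phosphatase of endosomes and the Golgi, fell from 1.73 to 0.573 FPKM (-1.06). Just outside were Fam199x, from 2.22 to 1.11 FPKM (-0.76), and Rpl36a, a ribosomal protein, at 639 and 412 FPKM (-0.63).

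The genes that rose were spread along the chromosome, and the sequence before their starts was read to see which held the core of the CTCF motif. Of the 277 genes, 246 had a promoter in the RefSeq table (GRCm38.p6, another build than the authors' mm9), 12 of the 15 risen genes among them. The forms searched were AGGGGGC, the variant AGGTGGC and the variant AGATGGC, on both strands, from 250 bases before the start to 50 after, each promoter being counted once. A form was present in 2 of 12 risen genes (16.7%), in 1 of the 2 fallen genes, in 34.5% of the 232 other tested genes, in 33.7% of all tested genes and in 23.6% of all 27025 genes with a promoter sequence. The 3 genes with a match and the gene with the largest rise are shown, the latter with its 2 annotated starts, so that a match and its absence can be read. Each sequence is the 250 bases before a start, 5′ to 3′ on the gene's strand, and capitals mark the motif core or its reverse complement. Mageh1 lies at chrX:153037564-153037813 on the minus strand, with the match 153 bases before the start. Nxt2 lies at chrX:142227687-142227936, Ocrl at chrX:47912206-47912455 and the Fhl1 starts at chrX:56779433-56779682 and chrX:56786277-56786526, all on the plus strand. Their matches began 117 bases before the start in Nxt2 and 69 in Ocrl.
Mageh1: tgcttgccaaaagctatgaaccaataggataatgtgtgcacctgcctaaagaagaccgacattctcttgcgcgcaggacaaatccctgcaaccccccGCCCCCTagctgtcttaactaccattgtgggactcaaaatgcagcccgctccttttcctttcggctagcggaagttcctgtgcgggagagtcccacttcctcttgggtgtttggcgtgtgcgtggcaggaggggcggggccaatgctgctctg
Nxt2: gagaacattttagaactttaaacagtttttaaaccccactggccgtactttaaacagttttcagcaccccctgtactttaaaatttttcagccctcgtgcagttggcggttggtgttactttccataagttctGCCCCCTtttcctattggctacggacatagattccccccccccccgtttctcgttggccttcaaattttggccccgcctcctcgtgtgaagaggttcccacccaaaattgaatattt
Ocrl: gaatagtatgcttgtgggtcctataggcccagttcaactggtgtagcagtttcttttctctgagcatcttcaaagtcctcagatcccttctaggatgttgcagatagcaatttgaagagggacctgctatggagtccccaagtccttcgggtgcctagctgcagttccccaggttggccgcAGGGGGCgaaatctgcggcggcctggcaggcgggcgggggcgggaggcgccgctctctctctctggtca
Fhl1, first start: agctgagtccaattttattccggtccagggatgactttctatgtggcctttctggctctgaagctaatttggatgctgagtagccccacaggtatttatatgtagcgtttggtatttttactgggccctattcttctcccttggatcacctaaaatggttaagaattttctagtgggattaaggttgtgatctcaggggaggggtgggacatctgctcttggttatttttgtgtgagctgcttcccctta
Fhl1, second start: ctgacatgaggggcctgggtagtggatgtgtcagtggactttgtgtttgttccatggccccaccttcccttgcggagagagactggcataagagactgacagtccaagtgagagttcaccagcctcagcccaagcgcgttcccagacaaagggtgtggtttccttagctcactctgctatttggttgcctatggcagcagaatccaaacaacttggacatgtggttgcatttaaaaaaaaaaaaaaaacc
Mageh1 and Nxt2 carry the reverse complement of AGGGGGC and Ocrl the forward form. A short match is a description of the letters and not of binding, which was not measured here.

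**Figure D2:**
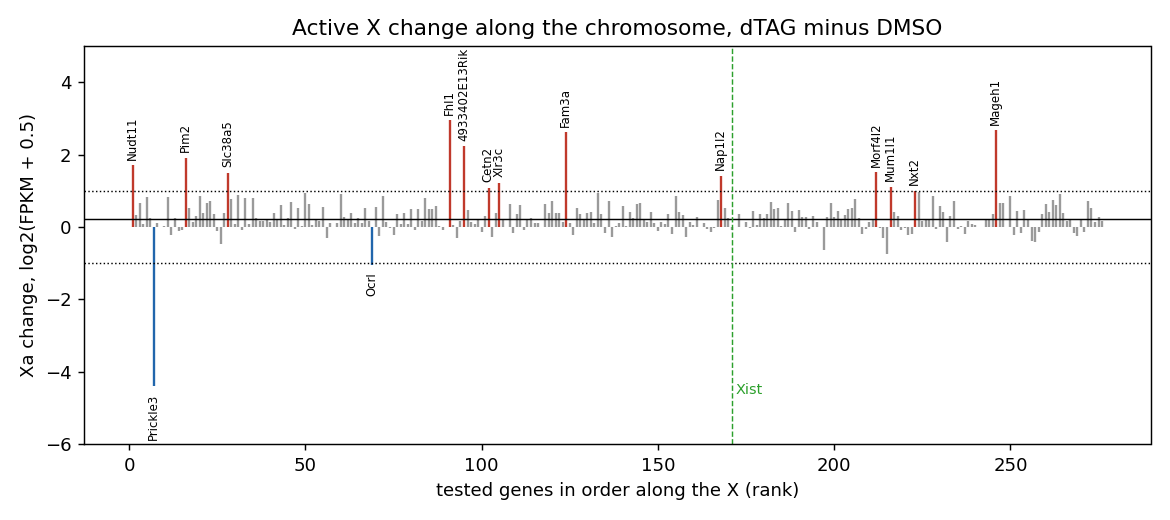
Xa change (log2(FPKM + 0.5), dTAG minus DMSO) of the tested genes in their order along the X, as ranks from RefSeq, with 1 bar per gene and no error bars. Red bars are genes that rose, blue bars genes that fell, the solid line is the median change of 0.23, the dotted lines the size rule and the dashed line Xist. Rises lie along the whole order, from Nudt11 at its start to Mageh1 near its end, and genes not reported by name are not drawn.

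Of 6 tested genes in the list of the inactivation centre, 2 rose, none fell, and the median change was 0.44 against 0.23 over all genes. Nap1l2, a nucleosome assembly protein best known from neurons, which belongs to the list by position, went from 0.457 to 2.06 FPKM on Xa (1.42) and was listed at 0 on Xi in both columns. Near it in gene order, Chic1 went from 2.40 to 3.65 FPKM (0.52) and Tsix from 1.11 to 1.41 FPKM on Xa (0.25). On the other side of Nap1l2, Cited1, a transcriptional coregulator, went from 60.3 to 102.2 FPKM (0.76). Rlim, the ubiquitin ligase that activates Xist, went from 11.5 to 14.9 FPKM (0.37), and Rps4x changed by -0.02. The 2 of 6 stand beside 5.42% of all genes tested. At a filter of 5 FPKM no member of the list rose, Nap1l2 being too low to be tested, and the median of the list lay 0.02 above that of all genes in place of 0.21.

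Xist itself was level. It stood at 18.6 FPKM on Xi with DMSO and 18.7 FPKM with dTAG, and at 0.063 and 0.034 FPKM on Xa. Tsix, antisense to Xist, had 6.67 and 5.64 FPKM on Xi, but without strand in the libraries reads of the overlapping pair are mixed. 4933407K13Rik, a transcript from the Dxz4 repeat locus, had 1.73 and 1.92 FPKM on Xa (0.12) and was listed at 0 on Xi in both columns.

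By function, the calls were few in every list, with 5.42% risen over all genes, and most lists sat near the median of all genes. No member rose or fell in 5 lists of general cell functions. These were 16 genes of ribosomes and translation (median change 0.15), 18 of mRNA processing and decay (0.11), 20 mitochondrial genes (0.24), 23 metabolic enzymes (0.15) and 17 of the ubiquitin system (0.37). Several abundant transcripts stood close to level. The ribosomal protein gene Rpl10 stood at 1177 FPKM with DMSO and 1186 with dTAG, and Nono, an RNA-binding paraspeckle protein, at 56.0 and 56.4 FPKM. Sat1, which acetylates polyamines, stood at 128 and 129 FPKM, and Cox7b, a subunit of respiratory complex IV, at 236 and 279 FPKM. Rpl10, Rpl36a, Hnrnph2, Rbm10, Pgk1, Acot9 and Apoo have near-identical copies elsewhere, and their levels are uncertain.

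Within these lists the furthest members stayed below the size rule. Among RNA-binding proteins, the cold-inducible Rbm3 went from 51.9 to 85.9 FPKM (0.72), Hnrnph2 changed by 0.67 and Rbm10 by 0.61. Fmr1, the translational regulator lost in fragile X syndrome, changed by 0.48. Among metabolic genes, Pgk1, of glycolysis, stood at 93.0 FPKM with DMSO and 149 with dTAG (0.68), and the creatine transporter gene Slc6a8 changed by 0.64 and Renbp by 0.61. Mitochondrial Acot9, an acyl-CoA thioesterase, went from 19.2 to 34.97 FPKM (0.85), Apoo, of the cristae-organizing complex, from 22.2 to 34.8 FPKM (0.64), and Pdk3, a pyruvate dehydrogenase kinase, from 5.19 to 8.06 FPKM (0.59). In the ubiquitin list 14 of 17 members lay above the median of all genes. The largest were Klhl13, a substrate adaptor of a cullin ligase (2.38 to 5.03 FPKM), and the deubiquitinases Usp27x (0.733 to 1.69 FPKM) and Usp11 (1.26 to 2.35 FPKM). The abundant conjugating enzyme gene Ube2a went from 19.8 to 29.4 FPKM (0.56).

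Chromatin and transcription regulators numbered 34, with a median of 0.16, and only Morf4l2 among them rose. Next were the deacetylase gene Hdac6, from 5.80 to 10.9 FPKM (0.85), and Med14, the scaffold of Mediator, from 1.08 to 2.26 FPKM (0.81). The histone demethylase genes Kdm5c and Kdm6a changed by 0.01 and 0.13 on Xa. In the list of mitosis, centrosome and DNA repair, 2 of 16 rose, Cetn2 and Nudt11, the latter not a mitotic gene by its known activity, and the median was 0.11. Apex2, an endonuclease of base excision repair, went from 7.77 to 5.71 FPKM (-0.41), and Haus7, of the augmin complex, stood at 22.3 and 22.2 FPKM.

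Lysosome, endosome, Golgi and transport genes numbered 30, of which 2 rose, Slc38a5 among them, and Ocrl fell (median 0.32). In the list of cytoskeleton, small GTPase signalling and protein folding, 2 of 26 rose, Fhl1 and the kinase Pim2 (median 0.31). There Pls3, an actin-bundling plastin, went from 7.97 to 15.8 FPKM, and Vbp1, a prefoldin subunit, from 28.2 to 37.8 FPKM (0.42). Of 12 cell surface, matrix and secreted genes none rose and Prickle3 fell (median 0.13). Efnb1, an ephrin ligand, went from 2.29 to 4.51 FPKM (0.84), and Amot, a scaffold of the Hippo pathway, from 2.56 to 4.11 FPKM (0.59).

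Of 14 genes in the Bex, Tceal, Armcx and MAGE families, Mageh1 rose and none fell (median 0.30). Bex2 went from 43.2 to 74.7 FPKM (0.78), whereas Bex1, the most abundant member, stood at 409 and 397 FPKM (-0.05). Maged2 changed by 0.73. Of 10 extraembryonic and germline genes, Xlr3c and Mum1l1 rose and none fell, and the median was 0.50. These 2 rises stand beside 5.42% of all genes tested. After centring on the median change, or scaling to equal medians, no member of the list rose. Cited1 and Amot belonged to that list as well. The 13 escape genes had 0 rises, 0 falls and a median of 0.07 on Xa. The 42 tested genes in none of the lists had 3 rises (Fam3a, 4933402E13Rik and Nxt2) and a median of 0.40. The lists overlap, since several genes stand in more than 1.

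**Figure D3:**
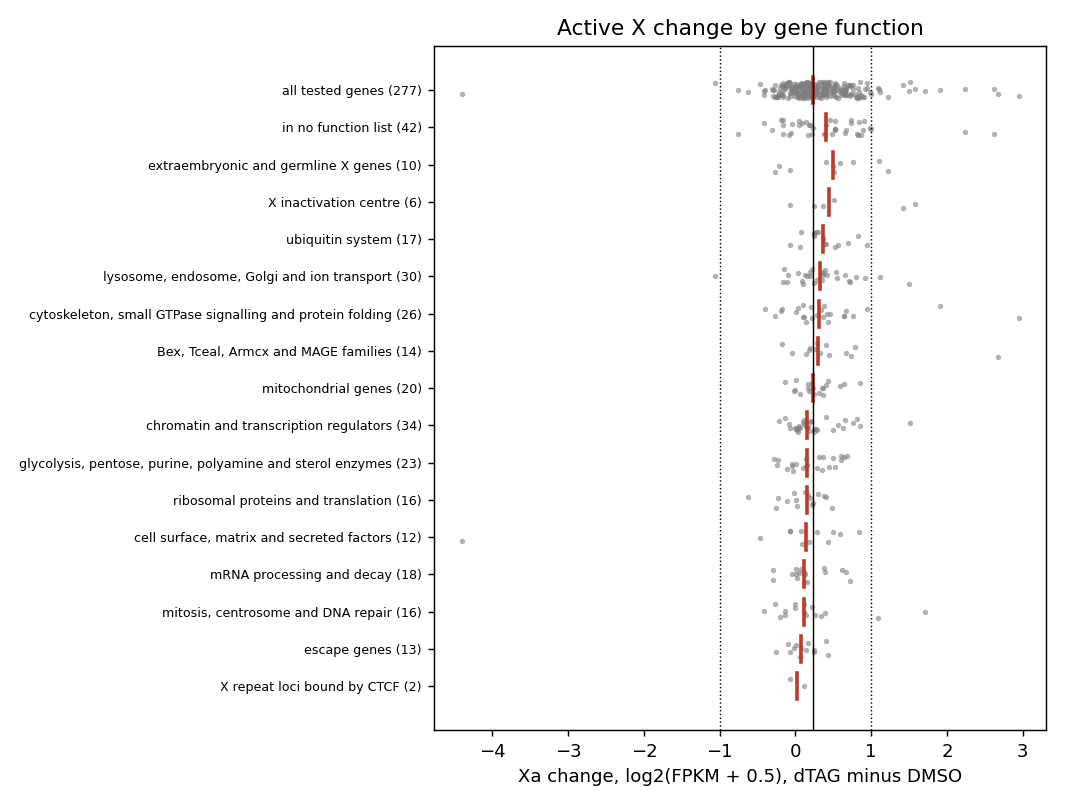
Xa change, log2(FPKM + 0.5), dTAG minus DMSO, by function list, with 1 point per gene, red bars for list medians and the number tested in parentheses. The solid line is the median of all 277 genes (0.23) and the dotted lines the size rule. List medians run from 0.02 for the CTCF-bound repeat loci to 0.50 for extraembryonic and germline genes. The repeat loci list holds 2 genes, Xist and 4933407K13Rik. Xist is at 0.063 and 0.034 FPKM on Xa, where the added 0.5 keeps a change small.

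The levels of the risen genes were also set beside WT, the knockout lines XRRb_XaKO and XRRc_XaKO, and Rad21 degron with DMSO. These are called the other controls here. The tables were normalized separately, so each Xa FPKM was divided by the median of its own column over 252 shared genes. This comparison was chosen after the data were seen. With Ctcf DMSO, 12 of the 15 risen genes lay below all 4 other controls, beside 25.9% of the 259 tested genes with all 4. With Ctcf dTAG, 5 of the 15 lay below the other controls, 4 inside their range and 6 above. Over the 259 genes, 32.4% lay below and 37.5% above with dTAG. The dTAG places of the risen genes were thus near those of all genes. Fhl1 was at 0.319 times the column median with Ctcf DMSO, 2.45 times with Ctcf dTAG, and 2.30 to 5.12 times in the other controls. Fhl1, 4933402E13Rik and Nxt2 were among those inside the range of the other controls with dTAG. Pim2, Nudt11, Nap1l2 and Fam3a were below that range with DMSO and above it with dTAG. Slc38a5 was inside their range with DMSO (0.229 times) and above it with dTAG (0.652 times). The 15 genes were chosen for a DMSO value low against dTAG, which by itself favours a place below the other controls, so these places are a description only.

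**Figure D4:**
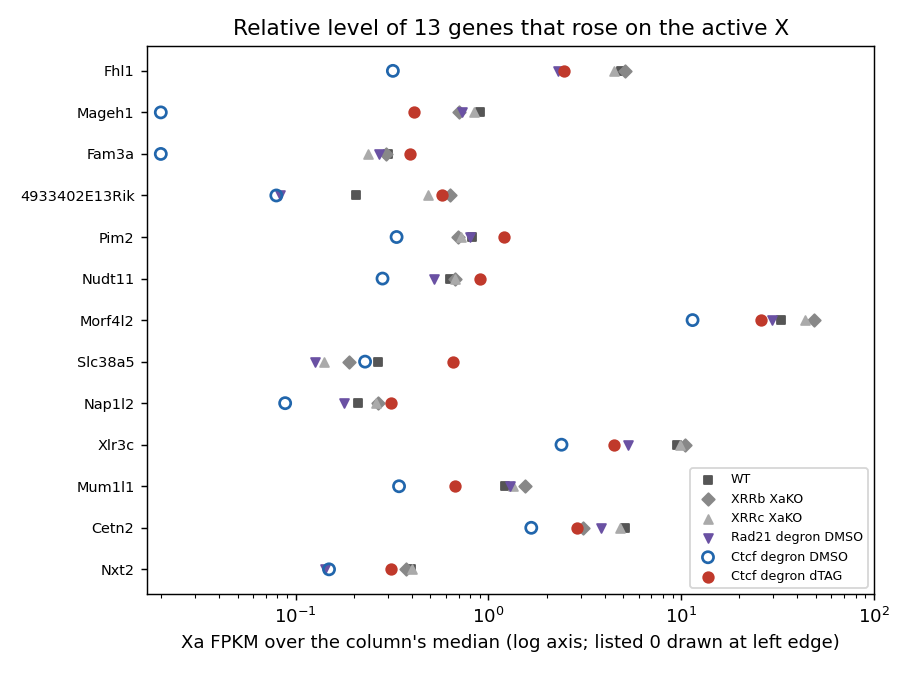
Xa FPKM of 13 of the 15 risen genes divided by the column median, on a log axis, with 1 marker per column and no error bars. Open blue circles are Ctcf DMSO, red points Ctcf dTAG and grey or purple markers the 4 other controls, and the listed 0 of Mageh1 and Fam3a is drawn at the left edge. The open circles lie left of all other controls for 11 of the 13 genes, a place held by 25.9% of 259 tested genes. The genes were chosen for a DMSO value low against dTAG, which favours this place. The comparison was chosen after the data were seen and is a description only.

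Few genes passed the size rule on Xi. Only S100g rose on Xi (0.361% of 277 genes) and only Praf2 fell (0.361%). S100g, a vitamin D-dependent calcium-binding protein, was listed at 0 with DMSO and at 0.647 FPKM with dTAG on Xi, beside 144 and 271 FPKM on Xa. Praf2, a small membrane protein of the prenylated Rab acceptor family, had 5.43 FPKM on Xi with DMSO and was listed at 0 with dTAG, and its Xa value went from 14.9 to 27.0 FPKM. The Xi share of Praf2 was also 0 in all 4 other control columns. S100g overlaps Ctps2 on the opposite strand, and Praf2 and Wdr45 both overlap Gm45208 on the same strand. Their values are thus uncertain. Of the 277 genes, 198 were at 0 on Xi in both columns, 51 were above 0 in both, 16 were above 0 only with dTAG and 12 only with DMSO. None of the 16 exceeded the 0.647 FPKM of S100g. Apart from Praf2, the 12 had at most 0.343 FPKM with DMSO.

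The Xi share is the Xi percentage of a gene's Xa plus Xi FPKM and does not depend on scaling between columns. Of 261 genes with 1 FPKM or more in both columns, 38 had a share of 10% or more in at least 1 of them, 33 in both, 3 only with DMSO and 2 only with dTAG. Their median share was 25.3% with DMSO and 24.2% with dTAG. The share was higher with dTAG for 15 genes and lower for 23, with a median change of -1.16 points and a median absolute change of 3.91 points. It moved by 5 points or less for 20 genes and by 10 or less for 29. A gain of 10 points or more was seen for 2 of the 38 (5.26%) and a loss of that size for 7 (18.4%). Across the 38 genes the shares of the columns had a Pearson r of 0.89, and of 0.64 without Xist and Tsix, genes not being independent replicates. In the yardstick pair XRRb_XaKO and XRRc_XaKO, 36 genes had a median absolute difference of 3.75 points, and 25 differed by 5 points or less. In the 38 genes the median change was 0.08 on Xa and -0.04 on Xi.

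Several of the genes with the highest Xi levels had similar shares in both columns. Wbp5, of the Tceal family, had 149 and 150 FPKM on Xi, with shares of 42.1% and 39.8%. Ndufa1, a subunit of respiratory complex I, had 90.5 and 82.8 FPKM on Xi (33.8% and 31.9%), and the RNA helicase gene Ddx3x 19.9 and 18.3 FPKM (31.5% and 27.3%). Shares within 2.5 points of each other were also found for the chloride transporter gene Clcn5 (35.7% and 36.2%), the demethylase gene Kdm5c (16.3% and 18.6%) and the transcription factor gene Tfe3 (28.1% and 26.4%). Kdm6a was listed at 0 on Xi in both columns. Tceal8 went from 17.7% to 14.1%. Rps4x, a ribosomal protein gene with near-identical copies elsewhere, went from 213 to 147 FPKM on Xi and from 24.3% to 18.3%.

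Eif2s3x, Wdr45 and Pbdc1 were among the 7 genes that lost 10 points or more. The translation initiation factor subunit gene Eif2s3x went from 36.0% to 20.0%, with 8.09 and 4.80 FPKM on Xi and 14.4 and 19.2 FPKM on Xa. Wdr45, an autophagy protein gene beside Praf2, went from 52.1% to 39.0%, with 14.6 and 8.78 FPKM on Xi and 13.5 and 13.8 FPKM on Xa. Pbdc1, a known escape gene, went from 28.1% to 14.9%, with 8.28 and 5.04 FPKM on Xi. Armcx5 and BC065397, both below 2 FPKM in sum, lost 13.8 and 11.4 points, and Praf2 lost 26.6 points. The gains were of Ercc6l, a DNA translocase of anaphase bridges, from 9.53% to 24.8% (0.451 and 1.27 FPKM on Xi), and 5530601H04Rik, from 10.3% to 23.7% (0.128 and 0.340 FPKM). Gpkow, Cenpi, a centromere protein, and Piga, of GPI-anchor synthesis, gained 7.82, 6.61 and 5.62 points.

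**Figure D5:**
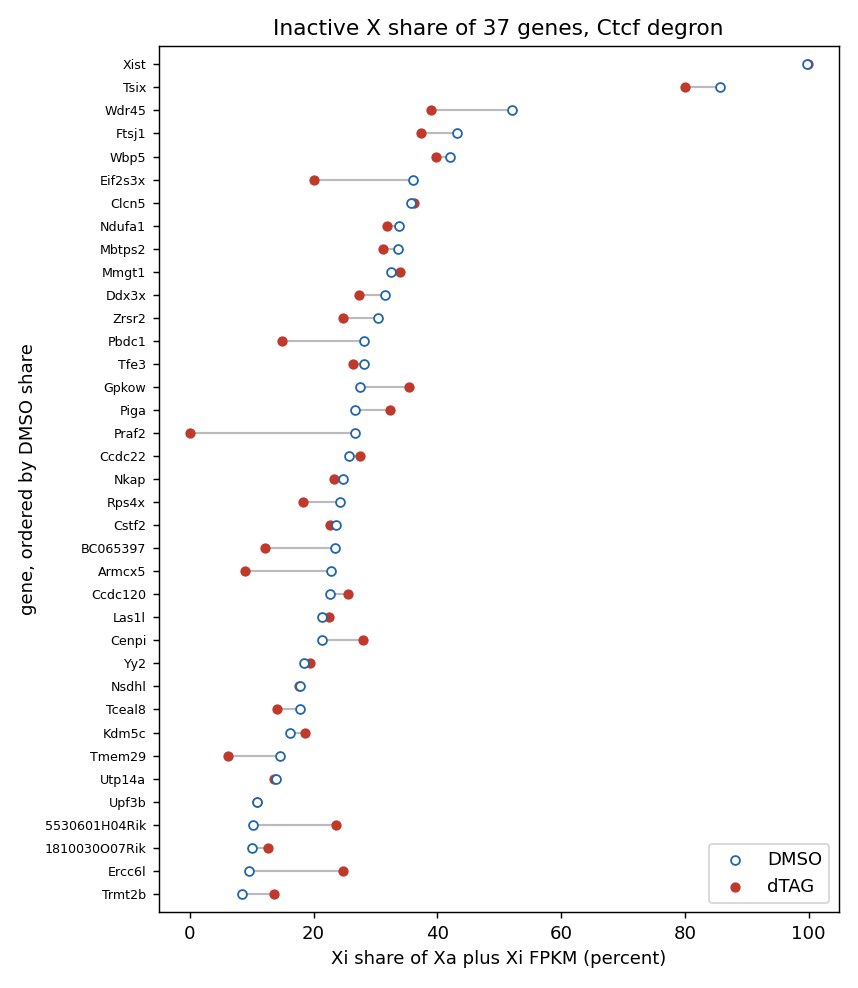
Xi share of Xa plus Xi FPKM, in percent, for 37 of the 38 genes at 10% or more in a column, ordered by the DMSO share. Open blue circles are DMSO, red points dTAG, and the grey line joins both values of a gene, with no error bars. The circles and points of 20 genes lie within 5 points of each other, while the dTAG points of Praf2 and Eif2s3x lie far to the left of their DMSO value.

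Low genes moved more. The 33 of these genes with a mean of 2.5 FPKM or more had a median absolute change of 2.46 points, and the 5 below that had 11.4 points. Summed over all tested genes, Xi made up 7.67% of the FPKM with DMSO and 5.87% with dTAG. Without Xist, Tsix and Rps4x the sums gave 5.21% and 4.29%, with 359 and 333 FPKM on Xi and 6524 and 7424 FPKM on Xa. Of 225 genes under 10% with DMSO, 2 were at 10% or more with dTAG, namely Ercc6l and Trmt2b (8.42% and 13.6%). Of the 225, 200 were at 0 on Xi with DMSO, and 185 of those were at 0 with dTAG as well. The highest dTAG share among the 200 was 2.65%. Against the shares of the 4 other controls, known for 35 of the 38 genes, the DMSO share lay below their range for 18 genes, inside it for 10 and above it for 7. The dTAG share lay below for 18, inside for 13 and above for 4. Ercc6l had 26.6% in WT, 33.4% and 31.7% in the XRRb_XaKO and XRRc_XaKO columns and 24.4% in Rad21 DMSO. Eif2s3x had 41.5% to 47.3% in the same columns, above both Ctcf values.

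Rad21 is a subunit of cohesin, and its degron was treated with dTAG or DMSO in 4 samples each, from 2 clones, for a time the labels do not give. Its table shares no column with the Ctcf table, and the difference between the degrons could not be tested with merged columns. Of 247 genes tested there, 16 rose on Xa (6.48%) and 37 fell (15%), and 10 rose on Xi (4.05%) and 8 fell (3.24%). Among the 240 genes tested in both tables the median Xa change was 0.23 for Ctcf and -0.26 for Rad21. Rises numbered 13 and 13 there, and 1 gene, 4933402E13Rik, was in both sets (7.69% of each). Over all tested genes, 5.42% rose with Ctcf and 6.48% with Rad21. The overlap is near those shares and is not read as a difference between the degrons. 4933402E13Rik went from 0.411 to 3.78 FPKM with Ctcf and from 0.492 to 3.84 FPKM with Rad21. Prickle3 was the gene that fell in both, listed at 0 in each dTAG column. Mum1l1 rose with Ctcf and fell with Rad21, from 7.71 to 2.81 FPKM (-1.31). Across the 240 genes Pearson's r of the Xa changes was 0.27 and Spearman's rho 0.26, with genes not being independent.

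Ctcf genes that rose had other values in the Rad21 table. Morf4l2 went from 176 to 100.2 FPKM there (-0.81), Cetn2 from 22.7 to 17.0 FPKM (-0.41) and Nudt11 from 3.08 to 5.33 FPKM (0.70). Pim2 and Nap1l2 changed by 0.01 and 0.04. The lists of translation and escape genes had median Xa changes of -0.88 and -0.63 with Rad21, beside 0.13 and 0.07 with Ctcf for the same genes. The list of mRNA processing and decay had -0.61 with Rad21, close to the escape genes, and 0.11 with Ctcf. Over all 240 genes the medians were -0.26 and 0.23. On the Xi share, 36 genes of the Rad21 table had a median of 28.9% with DMSO and 41.1% with dTAG, with 30 genes higher and 6 lower and a median absolute change of 11.5 points. The median change of those 36 genes was -0.47 on Xa and 0.03 on Xi.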

How the data were processed

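Per the labels' protocols, polyadenylated RNA was made into unstranded Smart-seq2 libraries. Build mm9, HISAT2 2.2.0, Trim Galore 0.6.4 and StringTie 2.1.1 are named in the submitters' processing notes. The method of allele assignment is not given in those sources. The authors deposited FPKM values per gene and allele, 1 column per treatment and allele, named as merged in the table's title, and the labels give 2 samples per treatment. In the Ctcf table, column names give only the treatment, so they were matched through the table's name and by elimination.

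Differences of log2(FPKM + 0.5) and Xi shares were computed with pandas 2.3.3 and tested on simulated data. The planned limma test needed single-sample columns and was not run. Near-identical copies (95% identity over 50% of the length) were sought with minimap2 2.31 in GENCODE M21 transcripts, for 276 of 277 genes. No common step was found among 29 low Xi values, so depth is unknown. The genes and the 15 function lists were chosen with earlier results of these data known. Named genes were the 10 largest Xa and 5 largest Xi changes past the size rule each way, the 10 highest on Xi, the 5 largest share gains and losses, fixed X genes, and 3 furthest members and the most abundant member per list. Others were named after their values were seen. Some genes are not reported here by name, though they are in the counts.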

Additional observations from a re-analysis of the deposited data

How the results depend on the processing

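No paired analysis was possible because each deposited column is a merged one. For the same reason no sample was left out.

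The main Xa counts were 15 rises and 2 falls. With a filter of 5 FPKM 5 rose and 1 fell, and without a filter 20 rose and 4 fell. With a pseudocount of 0.1, 20 rose and 2 fell. With a pseudocount of 1, 13 rose and 1 fell. The same counts held without the genes listed at 0 in a whole column (chosen after the data were seen). At 1.5-fold 59 rose and 4 fell, and at a log2 change of 1.5 there were 9 rises and 1 fall. Centring set the median Xa change to 0 and equal medians set it to -0.013, with 10 rises each, all among the 15. On Xi, 1 gene rose and 1 fell. With a pseudocount of 0.1 these were 6 and 6, with no filter 2 rose, and with a pseudocount of 1, centring or a log2 change of 1.5, 0 rose, no test being possible. At 1.5-fold 4 rose and 7 fell. Among Xi shares, gains of 10 points were 2, but 0 at a filter of 5 FPKM, 1 when the DMSO column chose the genes and 1 at a mean of 2.5 FPKM. Losses were 7, but 4 for 27 genes chosen by the other tables' controls. The median share change lay between -1.97 and -0.876 points over all the alternatives run on it. The causes were not tested, beyond the fewer genes a stricter filter or choice leaves. No named Xa change past the rule changed sign. Unknown depth limits every low value.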
